A study of Rattus norvegicus with 21 samples.

Results

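Cells of the rat insulinoma line INS-1, which make insulin and stand in for pancreatic beta cells in culture, were exposed to inflammatory cytokines for 6 or 16 h, and the change in expression between these times was compared between a line that overexpresses cathepsin H and its control line. The control, pcDNA, was stably transfected with an empty vector. The other line, pCTSH#1 (pCTSH1 in the sample titles), was 1 individual clone stably transfected with a plasmid that encodes the lysosomal protease cathepsin H (CTSH). All 4 groups compared thus carried a transfected plasmid and all had received 150 pg/ml recombinant mouse IL-1β and 5 ng/ml recombinant rat IFNγ. Each line had 3 Affymetrix arrays at 6 h and 3 at 16 h, so that the comparison used 12 of the 21 arrays of the series, chosen by their sample titles. The other 9 arrays were untreated cells of pcDNA, of pCTSH#1 and of untransfected INS-1, 3 of each. With 1 clone, the effect of cathepsin H and the history of the clone cannot be told apart. Without untreated cells at 6 and 16 h, time with cytokines and time in culture cannot be told apart either.

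The quantity reported for each of 31042 probe sets is the change from 6 to 16 h in pCTSH#1 minus the change from 6 to 16 h in pcDNA, on the log2 scale of the array values. A positive difference means that the probe set rose more, or fell less, in pCTSH#1, and it is called "higher" below. A probe set was called when the adjusted p of this difference in limma was under 0.05. Replicates are numbered in the labels, without a word on separate cultures, so the p-values measure only the spread between these arrays, which may be technical.

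As background, IL-1β acts on beta cells through NF-κB and MAP kinases, and IFNγ acts through JAK kinases. An early wave of chemokine and immediate early genes is followed by slower changes, among them endoplasmic reticulum stress and the integrated stress response. In that response, kinases such as PERK phosphorylate the initiation factor eIF2α, general translation slows, and translation of the transcription factor ATF4 increases. ATF4 and its target CHOP (Ddit3) then induce genes of amino acid supply, such as Asns, and regulators linked to cell death, such as Trib3 and Chac1. The difference measured here is larger than 0 both where pCTSH#1 started lower at 6 h and caught up, and where it stood higher at 16 h. For many of the named genes the level in each group is therefore given beside the difference. For the others only the difference, or the change in each line, is given.

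Array medians ran from 4.88 to 5.08 (log2). The share of probe sets brighter than background was 61.4% to 71.0%, taking the brightest nonspecific control probe set of an array as its background (3.88 to 4.18). The difference between replicate arrays had an SD of 0.194 to 0.216 at 6 h and 0.237 to 0.311 at 16 h, while the model assumed an equal spread. Ctsh, the transfected gene, did not check the labels: its probe set read at or near background in all 4 groups. The 3 arrays gave 3.48, 3.76 and 3.78 for pcDNA and 4.12, 3.87 and 4.21 for pCTSH#1 at 6 h, and 4.17, 3.50 and 3.71 against 5.08, 4.15 and 4.11 at 16 h. The source of the transfected sequence and the stretch of the transcript that the probes read were not used here. Ins1 read 13.49 to 13.69 on all 12 arrays.

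The 2 lines changed much alike between 6 and 16 h. In pcDNA 13115 probe sets changed (42.2% of those tested) and in pCTSH#1 12815 (41.3%). Of the 10783 that changed in both, 10764 moved in the same direction and 19 in opposite directions. Over 13438 genes, each represented by its brightest probe set, the changes in the lines had a Pearson correlation of 0.941, with no array shared between them. The difference between the changes was called for 83 probe sets, 0.267% of those tested. Of these, 41 were higher in pCTSH#1 (0.132%) and 42 lower (0.135%). Among the 13438 genes 50 were called (0.372%), 24 higher (0.179%) and 26 lower (0.193%). The size of the called differences ran from 0.47 to 2.49 with a median of 0.88, against a median size of 0.14 over all probe sets. An unadjusted p under 0.05 was reached by 3024 probe sets. Leaving out 1 array in turn gave between 41 calls (without pCTSH#1 6 h replicate 1) and 130 (without pcDNA 16 h replicate 3). The count was also below 50 without pcDNA 6 h replicate 2 (49) or 3 (45) and without pCTSH#1 6 h replicate 2 (48). In all 12 of these fits 34 of the 83 probe sets kept their call, 18 of them higher and 16 lower. A fit on only the 12 arrays, with a spread estimated from fewer arrays, called 46. Of 49 named genes that were called, 28 lost their call in it. Those whose value in that fit is not given further on are Fst, Dmrta1, Vps37b, Ano3, Snx11, Ackr3, Oga, Rbm47, Wdr6, Tspyl4, Chl1, Phex, Nedd9, Mapk6 and Grtp1. Counts were larger over the brighter 50% of probe sets (193), with array weights (210) and with a trended and robust prior (212).

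**Figure D1:**
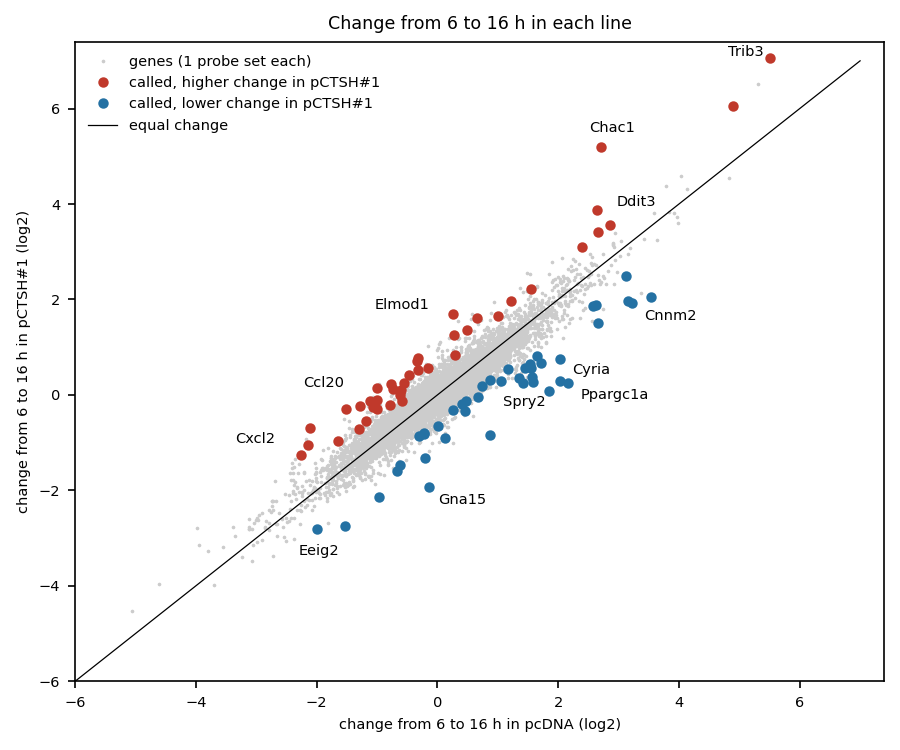
Change from 6 to 16 h in pcDNA (x axis) and in pCTSH#1 (y axis), both in log2, for 13438 genes by 1 probe set each (grey) and for the 83 probe sets whose change differed between the lines (red, higher in pCTSH#1; blue, lower). Points on the diagonal changed equally; Chac1 lies 2.49 above it, and Gna15, at a difference of -1.80, lies below it.

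What made up the difference varied. Of the 83 probe sets, 33 rose in both lines but by unequal amounts, and 17 fell in both. Of all probe sets 5011 rose and 5753 fell in both. In 11 the fall and in 8 the rise passed in pcDNA alone, as did 1073 and 1259 of all probe sets. In 4 the rise and in 4 the fall passed in pCTSH#1 alone, as did 1008 and 1024 of all probe sets. Opposite directions were taken by 6, against 19 of all probe sets. At 6 h itself the levels of the lines differed for 2.86% of all probe sets and at 16 h for 3.8%. With the spread weighted per group the counts were 1564 at 6 h and 692 at 16 h, against 887 and 1181 with an equal spread, so that their order turned. The split by time that follows uses the equal spread. For 45 of the 83 the lines differed at 16 h and not at 6 h by the test, 29 of which were lower in their change. For 30 they differed at 6 h alone, 20 of which were higher. The gap between the lines was narrower at 16 h than at 6 h for 36 probe sets and wider for 47. The arrays of the lines did not overlap for 21.96% of all probe sets at 6 h and for 17.11% at 16 h. Of the 83 they did not for 67 and 66, but the same arrays made the calls. Where groups are said below to be apart, this is a description only.

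The untreated arrays show where these probe sets stood before the cytokines. Of the 42 lower probe sets, 36 had a lower mean at 6 h than at 0 h in pcDNA and 32 in pCTSH#1, while 56.2% and 57.8% of all probe sets did. Of the 41 higher ones, 36 had a higher mean at 6 h than at 0 h in pcDNA and 31 in pCTSH#1, as did 43.8% and 42.2% of all probe sets. The 6 h arrays also enter the difference by which the probe sets were called, so these counts are a description and support nothing. The lines differed at 0 h for 12 of the 83 probe sets, against 1.87% of all probe sets, and 10 of the 12 had the sign of the difference at 6 h.

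**Figure D2:**
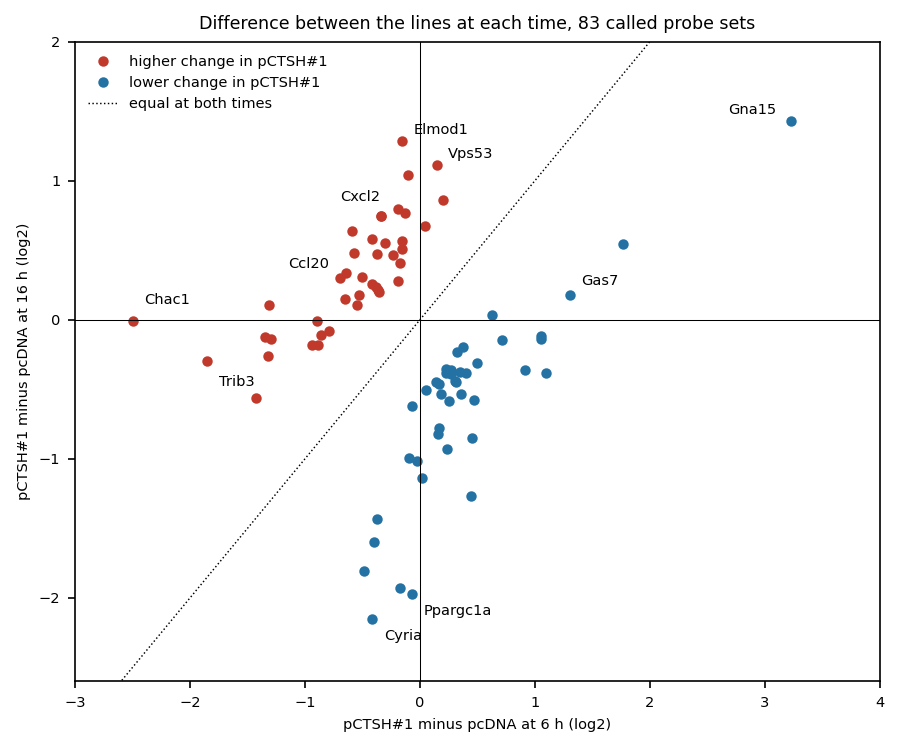
Difference between the lines (pCTSH#1 minus pcDNA, log2) at 6 h (x axis) and at 16 h (y axis) for the 83 called probe sets, red where the change was higher in pCTSH#1 and blue where it was lower. Chac1 lies 2.50 below 0 at 6 h and at 0 at 16 h. Ppargc1a lies near 0 and Cyria at -0.41 at 6 h, and both lie far below 0 at 16 h.

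Most measured genes of the integrated stress response rose in both lines, and some of them were lower in pCTSH#1 at 6 h. Of 31 measured members of the PERK, ATF4 and CHOP arm, 27 rose from 6 to 16 h in pcDNA (24.8% of all genes did) and 27 in pCTSH#1 (24% of all genes). The median rise was 1.45 in pcDNA and 1.66 in pCTSH#1. The mean level over the 31 genes was 8.60 to 8.64 on the pcDNA arrays and 8.24 to 8.28 on the pCTSH#1 arrays at 6 h, and 10.21 to 10.24 against 10.10 to 10.12 at 16 h. The lines' ranges therefore did not overlap at either time and lay closer at 16 h. The difference in change was called higher for 5 of the 31 (0.179% of all genes), lower for 1 (0.193%) and for neither in 25. Its median was 0.09, against -0.01 over all genes. At 6 h 10 of the 31 were lower in pCTSH#1 (1.56% of all genes), and at 16 h 2 were (264 of 13438 genes).

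Chac1, an enzyme that degrades glutathione and is a target of ATF4 and CHOP, had the largest difference among the called probe sets. On the 3 arrays it read 7.95, 7.92 and 8.23 at 6 h and 10.66, 10.71 and 10.87 at 16 h in pcDNA. In pCTSH#1 it read 5.49, 5.41 and 5.72 at 6 h and 10.72, 10.67 and 10.82 at 16 h. At 0 h it lay between 5.17 and 5.67 in both lines, so that at 6 h pCTSH#1 was still at about its untreated level, and at 16 h the arrays of the lines overlapped. The rise was 2.71 in pcDNA and 5.20 in pCTSH#1, a difference of 2.49 ± 0.18 (SE, 3 arrays a group; adjusted p = 7.83e-07) or 5.61-fold. It was called in every fit that left out 1 array.

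Trib3, a pseudokinase induced by ATF4 and CHOP that inhibits AKT, had 3 probe sets, and its calls differed among them. One of them read 6.18, 6.38 and 6.30 at 6 h and 11.25, 11.09 and 11.21 at 16 h in pcDNA, and 4.64, 5.03 and 5.32 and then 11.13, 10.97 and 11.04 in pCTSH#1. The lines were apart at 6 h and close at 16 h, and the difference in change was 1.16 ± 0.19 (adjusted p = 0.00707). Another probe set gave 1.55 ± 0.18 (adjusted p = 7.23e-04), but pCTSH#1 read at background there at 6 h, so this value is not a size. The brightest, which represents Trib3 among the genes, gave 1.20 ± 0.27 and did not pass (adjusted p = 0.0656).

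The transcription factors themselves were also lower in pCTSH#1 at 6 h, while their order at 16 h varied. Atf4, the factor at the head of the arm, read 11.33, 11.43 and 11.28 at 6 h and 12.61, 12.56 and 12.55 at 16 h in pcDNA. The pCTSH#1 arrays read 10.47, 10.50 and 10.50 and then 12.45, 12.47 and 12.48. All pCTSH#1 arrays lay below all pcDNA arrays at both times, by 0.86 at 6 h and, not passing the test, by 0.11 at 16 h. The difference in change was 0.75 ± 0.13 (adjusted p = 0.012) and was called whichever array was left out. Ddit3, which encodes CHOP, read 9.62, 9.47 and 9.33 and then 12.34, 12.39 and 12.29 in pcDNA, and 8.73, 8.63 and 8.40 and then 12.17, 12.22 and 12.09 in pCTSH#1. Its difference was 0.70 ± 0.13 (adjusted p = 0.0278), but the call was lost in 7 of the 12 fits that left out 1 array, where the adjusted p reached 0.0747. Cebpb, a C/EBP factor and partner of CHOP, read 9.70 to 9.92 in pcDNA against 9.20 to 9.34 in pCTSH#1 at 6 h. At 16 h it read 10.79 to 10.84 against 10.90 to 10.95, higher in pCTSH#1 but not passing. Its difference was 0.65 ± 0.14 (adjusted p = 0.0496). The call was lost in each of these 12 fits, with an adjusted p of up to 0.128.

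Ddit4, an inhibitor of mTORC1 that stress induces, read 7.30, 7.39 and 7.35 at 6 h in pcDNA and 6.34, 6.39 and 6.48 in pCTSH#1, and 9.84 to 10.22 against 9.68 to 9.91 at 16 h. The groups were apart at 6 h and overlapped at 16 h, with a difference in change of 0.76 ± 0.13 (adjusted p = 0.013). Without pCTSH#1 6 h replicate 1 the adjusted p was 0.0508. Vldlr, a lipoprotein receptor, was the member of the list with a lower difference, -0.63 ± 0.13 (adjusted p = 0.0447, lost in 10 of the 12 fits). It rose by 3.13 in pcDNA and by 2.50 in pCTSH#1, and the lines differed at 16 h (10.97, 11.05 and 10.88 against 10.54, 10.61 and 10.36). On only the 12 arrays Ddit3, Ddit4 and Vldlr did not pass (adjusted p of 0.0934, 0.0714 and 0.0934). A further 2 probe sets of Vldlr gave -0.67 and -0.73 and did not pass (adjusted p of 0.0811 and 0.163).

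Among members of the arm without a called difference, chosen after their values were seen, Asns, asparagine synthetase, rose by 1.38 in pcDNA and by 1.19 in pCTSH#1, and Sesn2, a sestrin that restrains mTORC1, by 2.55 and 2.54. Psat1 and Shmt2, enzymes of serine and glycine synthesis, rose by 2.41 and 1.34 in pcDNA and by 2.47 and 1.34 in pCTSH#1. Nupr1, a stress-induced chromatin protein, had a difference of 0.47 ± 0.21 (adjusted p = 0.463). The ATF6 and XBP1 arm, which supplies chaperones of the endoplasmic reticulum, had 0 of 26 members called and a median difference of -0.03. In limma 4 members were higher at an unadjusted p under 0.05 (5.6% of all genes). Those with the smallest p were Herpud1, a protein of endoplasmic reticulum degradation (0.89 ± 0.19, adjusted p = 0.0562), and Dnajb9, a cochaperone (0.68 ± 0.19, adjusted p = 0.154). Herpud1 read 8.92, 9.00 and 8.61 in pcDNA and 8.01, 7.94 and 7.35 in pCTSH#1 at 6 h, and 10.72 to 10.77 against 10.48 to 10.65 at 16 h. It passed without pcDNA 6 h replicate 3 (0.0457) or pCTSH#1 6 h replicate 1 (0.0442).

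**Figure D3:**
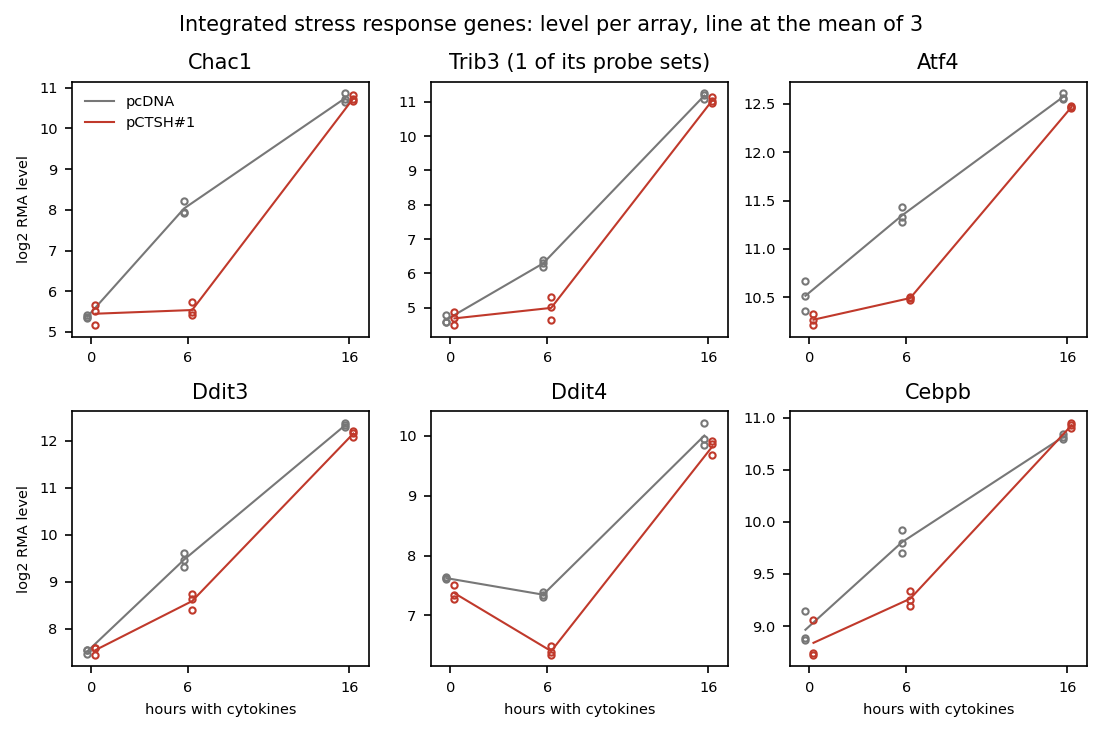
Levels (log2, own scale in each panel) of 6 integrated stress response genes against hours with cytokines, with 1 point per array and lines through the means of 3 arrays, in pcDNA (grey) and pCTSH#1 (red). At 6 h the red points lie below the grey ones in all 6 panels, and at 16 h the lines lie within 0.18 of each other. The Trib3 panel shows a called probe set, while the one that represents the gene did not pass the test of the difference.

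The promoters of the called genes were searched for the core of the amino acid response element, the site that ATF4 binds with a C/EBP partner. The windows were the 250 bases before the annotated start, from RefSeq on the build GRCr8, and 48 of the 56 called genes with a symbol had one. The letters TGATGNAA, searched on both strands, occurred in 3.4% of all 33469 windows, in 2 of the 20 windows of higher genes and in 0 of the 28 of lower genes. The 2 were Chac1 and Trib3, the genes whose rise differed most within the arm, and these windows are printed for that reason. Each runs 5′ to 3′ on the gene's strand, with the match in capitals. The match stands on the opposite strand, so the capitals are its reverse complement. It begins 167 bases before the start in Chac1 (chr3:126795881-126796130, plus strand) and 21 bases before it in Trib3 (chr3:161275534-161275783, minus strand).
Chac1: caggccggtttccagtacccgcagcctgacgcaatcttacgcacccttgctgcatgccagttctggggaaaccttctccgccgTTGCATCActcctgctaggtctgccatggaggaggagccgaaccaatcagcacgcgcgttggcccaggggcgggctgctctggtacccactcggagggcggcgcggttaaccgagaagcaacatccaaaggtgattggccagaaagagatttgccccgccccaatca
Trib3: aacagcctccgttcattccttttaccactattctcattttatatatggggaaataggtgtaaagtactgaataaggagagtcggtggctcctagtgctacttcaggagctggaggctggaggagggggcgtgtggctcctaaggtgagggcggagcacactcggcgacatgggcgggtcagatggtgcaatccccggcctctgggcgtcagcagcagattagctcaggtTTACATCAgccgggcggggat
The windows of Atf4, Ddit3, Ddit4 and Cebpb held no match, which says only that these letters are not in this window. Of the other motifs, the CCAAT box (CCAAT) was in 34.0% of all windows, in 8 of 20 higher and in 8 of 28 lower. The TATA box (TATAAA) was in 12.9%, in 5 of 20 and in 4 of 28. The E-box (CACGTG) was in 5.6%, in 2 of 20 and in 2 of 28, and the AP-1 site (TGANTCA) in 6.3%, in 1 of 20 and in 0 of 28. A match to one motif was kept where it overlapped a match to another.

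Some chemokine genes fell less, or did not fall, in pCTSH#1. Of 26 chemokines and cytokines, 14 fell in pcDNA from 6 to 16 h (25.1% of all genes) and 11 in pCTSH#1 (25.2%). A called difference was found for 3 of the 26, all higher (0.179% of all genes). The median difference was 0.30 against -0.01 over all genes. An unadjusted p under 0.05 for a higher difference was reached by 9 of the 26 (5.6% of all genes), and 8 of the 26 were at or near background in all 4 groups. The mean level over the list was 7.49 to 7.65 on the pcDNA arrays and 7.33 to 7.55 on the pCTSH#1 arrays at 6 h, which overlapped. At 16 h it was 6.71 to 6.75 and 6.89 to 6.99, which did not.

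Ccl20, a chemokine that attracts cells bearing CCR6, read 8.74, 8.92 and 8.78 at 6 h and 7.77, 7.76 and 7.54 at 16 h in pcDNA. In pCTSH#1 it read 8.02, 8.19 and 8.14 and then 7.92, 7.99 and 8.07. The pCTSH#1 arrays were all below the pcDNA arrays at 6 h and, not passing the test, all above them at 16 h. It fell by 1.12 in pcDNA and stood -0.13 from its 6 h level in pCTSH#1, not passing, so that the difference was 1.00 ± 0.14 (adjusted p = 0.00207), called in every fit that left out 1 array.

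Cxcl3 and Cxcl2, which attract neutrophils through CXCR2, differed between the lines mainly at 16 h. Cxcl3 read 11.40 to 11.51 in pcDNA and 11.48 to 11.54 in pCTSH#1 at 6 h, and 10.29, 10.28 and 10.29 against 10.87, 10.95 and 11.07 at 16 h. Its difference was 0.63 ± 0.11 (adjusted p = 0.0111). A further 2 bright probe sets of Cxcl3 gave 0.53 ± 0.20 and 0.68 ± 0.20 and did not pass (adjusted p of 0.36 and 0.205), and 2 dim ones gave -0.12 and -0.14. Cxcl2 read 12.33, 12.42 and 12.32 against 12.14, 12.07 and 12.28 at 6 h, and 10.09, 10.21 and 10.01 against 10.84, 10.96 and 10.91 at 16 h. Its difference of 0.99 ± 0.19 (adjusted p = 0.0326) lost its call in 10 of the 12 fits, with an adjusted p of up to 0.097. Cxcl1, of the same family, gave 0.62 ± 0.15 and did not pass (adjusted p = 0.0984).

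Interferon-induced genes showed small differences of one sign. Of 35, 34 had a fitted difference above 0, against 6504 of 13438 genes, and the median was 0.37. Of the 35, 18 reached an unadjusted p under 0.05, all of them higher (5.6% of all genes), and 1 was called (0.179%). In pcDNA 23 fell and 5 rose (25.1% and 24.8% of all genes), and in pCTSH#1 17 fell and 10 rose (25.2% and 24%). The mean level over the list was 10.05 to 10.13 in pcDNA and 9.88 to 10.01 in pCTSH#1 at 6 h, and 9.23 to 9.41 against 9.47 to 9.66 at 16 h. The order of the lines thus turned between the times, with no overlap at either. At 16 h 5 of the 35 were higher in pCTSH#1 (3.32% of all genes).

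The called gene was Oas1b, of the family that makes the activator of RNase L. It read 6.72, 6.66 and 6.58 in pcDNA and 6.36, 6.23 and 6.36 in pCTSH#1 at 6 h, and 4.43, 4.63 and 4.49 against 4.91, 5.61 and 5.28 at 16 h. The order of the arrays turned here too, but by the test the lines differed at 16 h and not at 6 h (adjusted p = 0.235). The fitted difference in change was 1.09 ± 0.18 (adjusted p = 0.00984). Since pcDNA read near background at 16 h, this value is not a size, and on only the 12 arrays the adjusted p was 0.0588. The Oas1b window held 2 matches to the interferon-stimulated response element, at 59 and 53 bases before the start. That motif was in 3.4% of all windows, in 1 of 20 higher and in 0 of 28 lower. Ifit2, an antiviral protein that binds RNA, fell by 3.98 in pcDNA and by 2.78 in pCTSH#1, a difference of 1.20 ± 0.28 that did not pass (adjusted p = 0.0764).

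NF-κB genes had 0 of 19 called in limma and a median difference of 0.22. At an unadjusted p under 0.05 in limma, 6 were higher (5.6% of all genes) and 0 lower (5.39%). Nfkb1, the p105 and p50 subunit, fell by 0.42 in pcDNA and stood 0.11 higher in pCTSH#1, not passing, a difference of 0.53 ± 0.12 (adjusted p = 0.0604). Zfp36, which destabilises cytokine mRNA, gave 0.88 ± 0.21 (adjusted p = 0.0791) and Zc3h12a, an RNase of the same pathway, 0.87 ± 0.26 (adjusted p = 0.203). Of 9 MHC class II genes 8 rose in each line (24.8% of all genes in pcDNA and 24% in pCTSH#1), with a median difference of 0.31 and 0 of 9 called. Their transactivator Ciita had a difference of 0.73 ± 0.15 (adjusted p = 0.0515). It read 5.92 to 6.06 against 5.89 to 6.00 at 6 h, and 6.49, 6.56 and 6.66 against 7.02, 7.44 and 7.35 at 16 h, when the groups no longer overlapped.

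**Figure D4:**
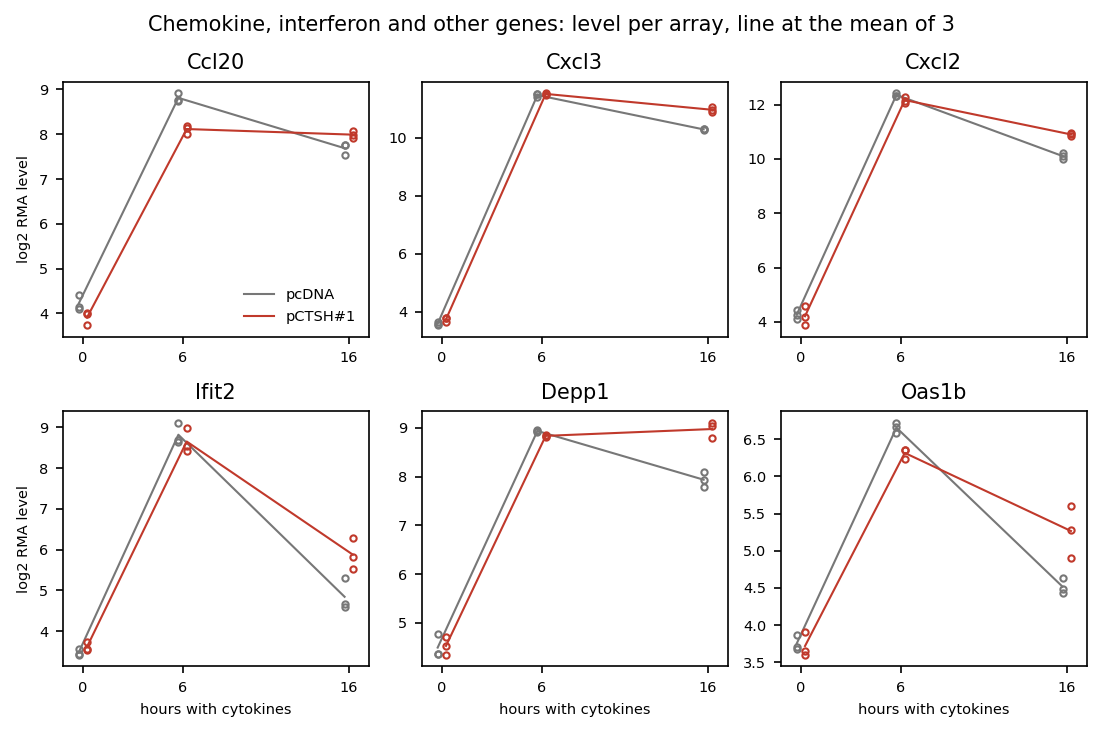
Levels (log2, own scale in each panel) of 3 chemokine genes, the interferon-induced genes Ifit2 and Oas1b, and Depp1 against hours with cytokines, with 1 point per array and lines through the means of 3 arrays, in pcDNA (grey) and pCTSH#1 (red). In all 6 panels the red points lie above the grey ones at 16 h; Ifit2 did not pass the test of the difference.

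Other genes with a higher difference had varied roles. Depp1, an autophagy regulator that FOXO factors induce, read 8.91, 8.96 and 8.94 in pcDNA and 8.83, 8.82 and 8.85 in pCTSH#1 at 6 h, and 7.93, 8.09 and 7.79 against 8.79, 9.03 and 9.11 at 16 h. It fell by 1.00 in pcDNA and stood 0.14 higher in pCTSH#1, not passing, a difference of 1.14 ± 0.18 (adjusted p = 0.00707). Ak3, an adenylate kinase of the mitochondrial matrix, fell by 0.61 in pcDNA alone, with a difference of 0.67 ± 0.10 (adjusted p = 0.00617). A second probe set of Ak3 gave 0.43 and did not pass. Id1, an inhibitor of helix-loop-helix factors, read 10.10, 10.04 and 10.22 against 9.37, 9.45 and 9.61 at 6 h and 10.38, 10.43 and 10.37 against 10.64, 10.75 and 10.80 at 16 h. It was thus lower in pCTSH#1 at 6 h and higher at 16 h, with a difference of 0.98 ± 0.13 (adjusted p = 0.00207).

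A pair of trafficking genes stood higher in pCTSH#1 at 16 h. Vps53, a subunit of the GARP tethering complex that returns vesicles from endosomes to the Golgi, read 7.94 to 7.99 against 8.06 to 8.22 at 6 h and 8.49 to 8.68 against 9.58 to 9.88 at 16 h (difference 0.97 ± 0.14, adjusted p = 0.00207). Elmod1, a GTPase-activating protein for ARF family proteins, read 5.14 to 5.57 against 5.14 to 5.45 at 6 h and 5.27 to 5.91 against 6.88 to 7.09 at 16 h (difference 1.44 ± 0.23, adjusted p = 0.00717). For both genes the groups did not overlap at 16 h, as was so for 17.11% of all probe sets. Depp1, Ak3, Id1, Vps53 and Elmod1 kept their calls in all 12 fits that left out 1 array.

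Myc, the growth-promoting transcription factor and an immediate early gene, read 8.80, 8.67 and 8.71 in pcDNA against a mean of 7.93 ± 0.11 (SD, n = 3) in pCTSH#1 at 6 h and 11.05, 11.20 and 11.10 against 11.09, 11.01 and 11.01 at 16 h. Like Chac1 it was lower in pCTSH#1 at 6 h and overlapped at 16 h, with a difference of 0.71 ± 0.13 (adjusted p = 0.0178). The call was lost without pcDNA 16 h replicate 1 and without pCTSH#1 6 h replicate 2 (adjusted p of up to 0.0658). Sct, which encodes the gut hormone secretin, fell by 0.32 in pcDNA and rose by 0.52 in pCTSH#1, with a difference of 0.84 ± 0.15 (adjusted p = 0.015). Its call was lost without pcDNA 6 h replicate 3, pCTSH#1 6 h replicate 1 or pCTSH#1 6 h replicate 2 (adjusted p of up to 0.0593). Dmrta1, a DM-domain factor, rose by 2.65 and 3.88, but pCTSH#1 read at background at 6 h, so its fitted difference of 1.23 is not a size. Its call was lost without pcDNA 6 h replicate 3 or pCTSH#1 6 h replicate 1 (adjusted p of up to 0.0572). Snx11, Rbm47, Vps37b, Mapk6 and Phex had differences of 0.62, 0.58, 0.55, 0.47 and 1.09 and lost their calls in 8, 10, 7, 11 and 9 of the 12 fits. A second probe set of Snx11 gave 0.47 and did not pass (adjusted p = 0.216). Of 2 others of Vps37b, one gave 0.18 and one, near or at background in 3 groups, gave -0.48, the opposite sign, and neither passed (adjusted p of 0.87 and 0.468). Fst read at or near background in all 4 groups and Chl1 at background in 3 of them, so that their fitted differences of 0.80 and 0.88 are not sizes. The call of Fst was lost without pcDNA 6 h replicate 3 (adjusted p = 0.0545) and that of Chl1 in 8 of the 12 fits.

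Among the genes with a lower difference, several rose in pcDNA and hardly moved in pCTSH#1. Spry2, a Sprouty protein that restrains receptor tyrosine kinase signalling, read 5.99, 5.95 and 6.00 at 6 h and 7.69, 7.67 and 7.34 at 16 h in pcDNA. The pCTSH#1 arrays read 5.63, 5.39 and 5.46 and then 5.57, 5.98 and 5.74. It rose by 1.59 in pcDNA and stood 0.27 higher in pCTSH#1, not passing, a difference of -1.32 ± 0.19 (adjusted p = 0.00305). Spry2 was also lower in pCTSH#1 before cytokines, by 0.57 (adjusted p = 0.0293). It was the 1 called gene among 21 feedback inhibitors of cytokine signalling (0.372% of all genes were called), whose median difference was 0.05.

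Ppargc1a, the PGC-1α coactivator of mitochondrial genes, came up in pcDNA alone. It read 3.58, 3.78 and 4.05 at 6 h and 5.97, 5.90 and 6.03 at 16 h in pcDNA, and 3.68, 3.76 and 3.76 and then 3.74, 4.05 and 4.19 in pCTSH#1, where it was at background at both times. At 0 h it read 5.13, 4.14 and 4.36 in pcDNA and 3.75 to 3.86 in pCTSH#1. The fitted difference was -1.90 ± 0.27 (adjusted p = 0.00207) and, resting on groups at background, is not a size. Among 34 genes of mitochondrial energy metabolism it was the 1 called (0.372% of all genes were), and the median difference of that list was 0.00. Its window, printed because it holds a match to the cyclic AMP response element (TGACGTCA, in capitals, on the gene's strand), lies at chr14:63634058-63634307 on the plus strand.
Ppargc1a: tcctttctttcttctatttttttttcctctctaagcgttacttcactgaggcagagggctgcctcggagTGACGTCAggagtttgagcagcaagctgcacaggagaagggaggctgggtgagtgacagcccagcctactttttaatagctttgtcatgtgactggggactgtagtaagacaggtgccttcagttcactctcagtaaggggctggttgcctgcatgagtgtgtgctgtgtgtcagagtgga
The match begins 181 bases before the start. The letters occurred in 1.6% of all windows, in 3 of the 28 windows of lower genes (with Pnpla3 and Tspyl4) and in 1 of the 20 of higher genes (Vps37b).

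Cyria, which encodes a protein that binds active RAC1 and restrains actin branching, read 4.01, 4.23 and 4.36 at 6 h and 6.39, 6.54 and 5.74 at 16 h in pcDNA. In pCTSH#1 it was at background at both times (3.68 to 3.86 and 3.96 to 4.17). The fitted difference of -1.74 ± 0.24 (adjusted p = 0.00207) is thus not a size either. Another regulator of RAC, the GTPase-activating protein Arhgap22, read 4.89, 4.62 and 4.50 against 4.85, 4.86 and 5.03 at 6 h and 6.19, 6.17 and 5.93 against 5.01, 5.30 and 5.18 at 16 h. The groups overlapped at 6 h and were apart at 16 h, with a difference of -1.17 ± 0.21 (adjusted p = 0.015), lost without pcDNA 6 h replicate 3 (adjusted p = 0.0563). Ano3, a scramblase of the anoctamin family, Nedd9, an adhesion scaffold, and Ackr3, a scavenger receptor for chemokines, rose in both lines and more in pcDNA. Their differences were -0.99, -0.90 and -1.06, and their calls were lost in 6, 9 and 8 of the 12 fits, with adjusted p of up to 0.0922, 0.138 and 0.0957. Ano3 read near background at 6 h in both lines and Ackr3 in pCTSH#1, so these 2 values are not sizes. A second probe set of Nedd9 gave -0.94 and did not pass (adjusted p = 0.0703), and one of Ano3, at or near background throughout, gave -0.06.

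A further set had dipped below its untreated level at 6 h and recovered further in pcDNA. Cnnm2, a magnesium transport protein, read 6.16 to 6.40 at 0 h, 4.21, 4.20 and 4.23 at 6 h and 7.45, 7.52 and 7.35 at 16 h in pcDNA. In pCTSH#1 it read 6.39 to 6.51, then 4.63, 4.31 and 5.07, and 6.85, 6.35 and 6.57. Every pCTSH#1 array was above every pcDNA array at 6 h, not passing the test, and below every one at 16 h. The fitted difference was -1.31 ± 0.21 (adjusted p = 0.00689), which is not a size because pcDNA read near background at 6 h, and on only the 12 arrays the adjusted p was 0.0579. Rab9b, a Rab GTPase of the route from endosomes to the Golgi, read 8.45 to 8.51, then 7.10 to 7.52 and 8.81 to 8.85 in pcDNA, and 8.38 to 8.76, then 7.62 to 7.79 and 8.26 to 8.34 in pCTSH#1 (difference -0.88 ± 0.15, adjusted p = 0.0097). Sik2, a salt-inducible kinase, rose by 0.75 and 0.19, a difference of -0.56 ± 0.10 (adjusted p = 0.012; 0.0534 on only the 12 arrays). A dimmer probe set of Sik2 gave -0.31 and did not pass.

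In Adora2b, Slc40a1 and Lhfpl6 pCTSH#1 stood higher at 6 h. Adora2b, the A2B adenosine receptor, read 9.34 to 9.86, then 7.05, 6.88 and 6.53 and then 10.02, 10.09 and 9.81 in pcDNA. The pCTSH#1 arrays read 9.65 to 10.01, then 8.05, 8.06 and 7.51 and then 9.76, 9.75 and 10.01. The groups were apart at 6 h alone, and the difference was -1.19 ± 0.23 (adjusted p = 0.0287), lost in 8 of the 12 fits (adjusted p of up to 0.0971). Slc40a1, the iron exporter ferroportin, read 5.51, 5.24 and 5.13 against 6.35, 5.88 and 6.40 at 6 h, with a difference of -1.28 ± 0.26 (adjusted p = 0.0447), lost in 7 fits (up to 0.119). Lhfpl6 gave -1.48 (lost in 6). Akr1c19, an aldo-keto reductase, differed between the lines at 16 h and gave -0.72 (lost in 7). Pnpla3, a lipid droplet protein, fell in both lines from a higher level in pCTSH#1 at 6 h and gave -1.17 (lost in 8), which is not a size because pCTSH#1 read near background at 16 h. Hpgd, which inactivates prostaglandins, also fell in both lines, by 0.62 in pcDNA and by 1.48 in pCTSH#1, from a level that was higher in pCTSH#1 at 6 h (9.83, 9.79 and 9.65 against 9.10, 9.10 and 8.92). Its difference of -0.86 ± 0.16 was lost in 8 fits (up to 0.0836), and a second probe set gave -0.81 ± 0.18 and did not pass (adjusted p = 0.0641). Further probe sets that did not pass gave -1.04 and 0.00 for Pnpla3 (adjusted p of 0.0723 and 0.998, both with groups at or near background) and -0.80 and 0.01 for Slc40a1 (0.128 and 0.997). The latter of these and one of Lhfpl6 (0.00) were at or near background in all 4 groups. On only the 12 arrays none of Adora2b, Slc40a1, Lhfpl6, Akr1c19, Pnpla3 and Hpgd passed.

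Hes6, a helix-loop-helix factor of neuronal and endocrine differentiation, moved in opposite directions. It read 8.80, 8.79 and 8.75 at 6 h and 9.31, 9.31 and 9.11 at 16 h in pcDNA, and 9.24, 9.19 and 9.12 and then 8.96, 8.94 and 8.66 in pCTSH#1. It rose by 0.46 in pcDNA and fell by 0.33 in pCTSH#1, so that the order of the lines turned with no overlap at either time. The difference was -0.79 ± 0.12 (adjusted p = 0.00617; 0.0506 on only the 12 arrays). Eeig2 fell in both lines, with changes of -1.99 and -2.80, and its order turned in the same way (9.60 to 9.65 against 9.97 to 10.22 at 6 h, and 7.56 to 7.68 against 7.28 to 7.43 at 16 h). Its difference was -0.81 ± 0.11 (adjusted p = 0.00207), with a dim second probe set at -0.22. Wdr6 also moved in opposite directions (-0.57, lost in 10 fits), while Tspyl4, Grtp1, Oga and Adgrb2 had differences of -0.72, -0.59, -0.61 and -0.55 and lost their calls in 9, 12, 10 and 8 fits. The probe set that represents Oga fell in both lines, while 2 others had higher means at 16 h than at 6 h in both (7.34 and 8.78, and 7.59 and 8.79, in pcDNA; 7.59 and 8.20, and 7.79 and 8.23, in pCTSH#1). Their differences of -0.83 and -0.77 did not pass (adjusted p of 0.059 and 0.053). Called probe sets that do not represent their gene were lower for Crebrf (-1.16), Trio (-0.74), Soat1 (-0.66) and Naa30 (-0.59), each lost in 4 or more fits. Naa30 read at or near background in all 4 groups and Trio near it in pcDNA at 6 h, so these 2 values are not sizes. Such a probe set of Ccz1 was higher (0.72) but read at background in all 4 groups.

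**Figure D5:**
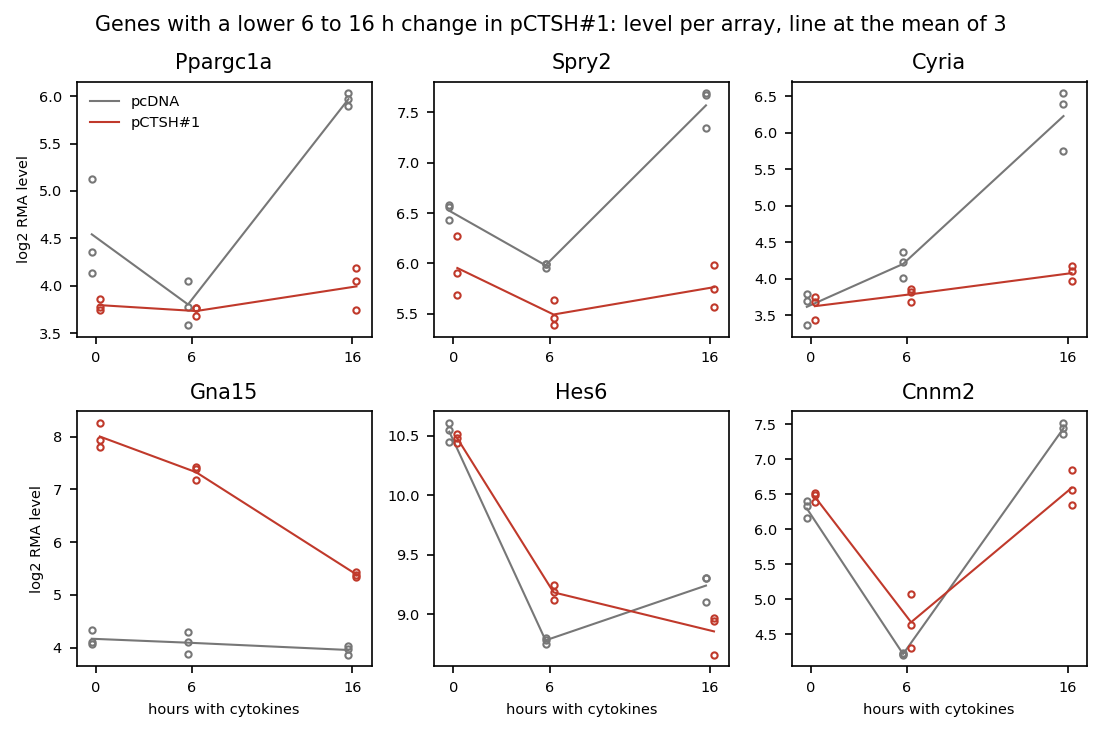
Levels (log2, own scale in each panel) of 6 genes with a lower change in pCTSH#1 against hours with cytokines, with 1 point per array and lines through the means of 3 arrays, in pcDNA (grey) and pCTSH#1 (red). Ppargc1a, Spry2 and Cyria rise in the grey line alone, Gna15 falls to 5.39 in the red line alone, and Hes6 and Cnnm2 cross between 6 and 16 h.

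Gna15 and Gas7 were already higher in pCTSH#1 than in pcDNA before the cytokines. Gna15, a G protein subunit of the Gq class, read 7.80, 7.94 and 8.26 at 0 h, 7.43, 7.38 and 7.17 at 6 h and 5.38, 5.34 and 5.43 at 16 h in pCTSH#1. In pcDNA it read 3.87 to 4.33 at all 3 times, near or at background. Its fitted difference was -1.80 ± 0.17 (adjusted p = 2.42e-05), and pCTSH#1 itself fell by 1.94. Gas7, an actin-binding protein, read 7.18, 7.03 and 7.21 at 0 h, 5.18, 5.02 and 5.13 at 6 h and 3.56, 3.95 and 3.86 at 16 h in pCTSH#1, and was at background in pcDNA at 6 and 16 h. Its fitted difference was -1.12 ± 0.18 (adjusted p = 0.0074). Neither value is a size, since pcDNA read at or near background at both times. With Spry2, Ppargc1a, Eeig2 and Ackr3 these are the 6 called probe sets with a symbol that differed between the lines at 0 h, and the other 6 had no symbol.

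Rac2 and Nox1 are the small GTPase and the catalytic subunit of a superoxide-producing NADPH oxidase, and the title of the study names Rac2. Neither difference passed. Nox1 read 5.88, 5.78 and 5.98 at 6 h and 5.86, 6.34 and 6.48 at 16 h in pcDNA, and 6.76, 7.02 and 7.52 and then 8.51, 8.82 and 8.61 in pCTSH#1. It was apart at both times and rose in pCTSH#1 alone (by 1.55, against 0.35 in pcDNA, not passing), with a difference of 1.20 ± 0.25 (adjusted p = 0.0515). That difference passed without pcDNA 16 h replicate 3 (0.0284) or pCTSH#1 6 h replicate 3 (0.0116) and missed the threshold in the other 10 fits (up to 0.138). With arrays centred on their medians or with cyclic loess it passed (0.0402 and 0.0414). Rac2 read 4.73, 5.11 and 5.62 and then 5.97, 6.20 and 5.95 in pcDNA, and 5.56, 5.31 and 6.16 and then 7.33, 7.42 and 7.44 in pCTSH#1. It rose in both lines, by 0.89 and 1.72, and the lines overlapped at 6 h and were apart at 16 h. The difference was 0.83 ± 0.27 (adjusted p = 0.241), and no fit that left out 1 array called it. Of 21 NADPH oxidase and Rac genes 0 were called, and 10 were at or near background in all 4 groups. At an unadjusted p under 0.05 in limma, 2 were higher (5.6% of all genes) and 0 lower (5.39%).

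Nos2, the inducible nitric oxide synthase, read 7.01, 6.84 and 7.19 and then 4.49, 5.08 and 4.41 in pcDNA, and 6.71, 6.46 and 6.78 and then 4.87, 5.60 and 5.42 in pCTSH#1. It fell in both lines, with changes of -2.35 and -1.35, and the difference of 1.00 ± 0.25 did not pass (adjusted p = 0.108). Ins2, which encodes insulin, read 12.80, 12.82 and 12.73 and then 12.53, 12.33 and 12.20 in pcDNA, and 13.19, 13.23 and 13.19 and then 13.16, 13.10 and 13.01 in pCTSH#1. It was higher in pCTSH#1 at both times, and the difference in change was 0.31 ± 0.12 (adjusted p = 0.339). Ins1 gave -0.04 ± 0.09 (adjusted p = 0.941), with levels near the top of the scale, where differences are compressed. Nkx6-1, a beta-cell transcription factor, gave -0.93 ± 0.23 (adjusted p = 0.0894), and Glp1r, the GLP-1 receptor, -0.63 ± 0.16 (adjusted p = 0.127). Ctsh gave 0.26 ± 0.28 (adjusted p = 0.848) at or near background, and Ctsl, cathepsin L, -0.36 ± 0.09 (adjusted p = 0.128).

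Most other gene groups had no called member by the probe set that represents each gene. This held in limma for 30 genes of insulin synthesis and secretion (median -0.02), 14 beta-cell transcription factors (-0.06), 50 cell cycle genes (0.00), 33 lysosomal genes (0.03), 18 circadian clock genes (0.01), 16 heat shock proteins (-0.02), 24 antioxidant and NRF2 genes (0.03, Trib3 among them, of which 2 other probe sets were called), 19 genes of cholesterol synthesis (0.03), 19 cytosolic ribosomal proteins (-0.02) and 26 neuronal genes (-0.08). It also held for 23 pro-apoptotic genes (0.06), 16 survival genes (0.17), 23 p53 targets (-0.08), 17 genes of nitric oxide and arginine (0.07) and 12 MHC class I and immunoproteasome genes (0.07). At an unadjusted p under 0.05 these 15 lists had 20 higher and 17 lower members, against 5.6% higher and 5.39% lower over all genes. Of the 17 lower, 6 were among the 26 neuronal genes, and of the 20 higher, 4 were among the 23 pro-apoptotic, 3 among the 16 survival and 3 among the 17 nitric oxide and arginine genes. Of the 16 survival genes 13 had a difference above 0, and of the 23 p53 targets 6, against 6504 of all 13438 genes. So did 9 of the 12 MHC class I and immunoproteasome genes, 5 of the 16 heat shock proteins and 4 of the 19 cytosolic ribosomal proteins. Myc was the 1 called gene of 26 AP-1 and immediate early genes (median 0.01), against 0.372% called of all genes. A miss at this number of arrays does not show that these genes changed alike. Markers of cells that an INS-1 culture should lack were mostly dark: at or near background in all 4 groups were 7 of 9 genes of other islet hormones, 13 of 18 immune, 10 of 15 fibroblast, 9 of 11 endothelial and 13 of 15 acinar and ductal genes. None of these was called. The mean level of the immune list was 4.24 to 4.32 and 4.27 to 4.36 on the pcDNA arrays at 6 and 16 h, and 4.29 to 4.42 and 4.36 to 4.40 on the pCTSH#1 arrays.

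The remaining 26 called probe sets had no gene symbol, 14 of them higher and 12 lower. The one with the smallest p rose from 10.06, 10.04 and 9.87 to 11.46, 11.45 and 11.71 in pcDNA and from 10.22, 10.20 and 10.03 to 10.72, 10.73 and 10.71 in pCTSH#1 (difference -0.98 ± 0.13, adjusted p = 0.00207). Another opposed the lines: it rose from 5.27, 5.15 and 5.16 to 6.19, 6.21 and 5.79 in pcDNA and fell from 5.66, 6.00 and 5.27 to 4.80, 5.02 and 4.56 in pCTSH#1 (difference -1.72 ± 0.28, adjusted p = 0.00707).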

How the data were processed

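Expression was measured on Affymetrix rat arrays, 1 per sample, from biotin-labelled RNA. The deposited table holds log2 values, and per the submitters' processing notes the authors used RMA and the affy and limma packages, with versions not given in the sources used here. RMA corrects background, equalises the distributions of the arrays and compresses low signals, so differences near background are understated. The table has 31137 probe sets, of which 95 are controls and 31042 were tested. A symbol was given by GEO's platform annotation for 19063 of them, several for 572 and none listed for 11407. Each of 13438 genes was represented by its brightest probe set over all arrays. The values were fitted in limma 3.58.1 (R 4.3.3) with a mean for each of the 7 groups over all 21 arrays, which share 1 estimate of the spread, followed by empirical Bayes moderation. The difference of the changes was tested two-sided with Benjamini-Hochberg adjustment over all 31042 probe sets at 0.05, and so was each change and each difference between the lines. Arrays carry no read depth, and their number limits the precision.

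A group was at background when at least 2 of its 3 arrays were at or below the brightest nonspecific control, and near it when its mean was under 0.5 above. The named genes are up to 25 called genes per direction (by a single symbol and the representing probe set), up to 4 members of each list with the smallest p, and Ctsh, Rac2, Nox1, Nos2, Ins1 and Ins2. Other probe sets of a named gene are given where they differ in sign or call. Asns, Sesn2, Psat1, Shmt2, Nupr1, Adgrb2, the called probe sets that do not represent their gene and those without a symbol fall outside this rule and were chosen after their values were seen. The members and lists were chosen with earlier results of these data known. The fit was tested on simulated data. Alternatives were a replicate block, the 12 arrays alone, centred arrays, cyclic loess, the brighter 50% of probe sets, other variance settings, mean values per gene and leaving out each array. Among the 4 groups compared, all 3 same-numbered correlations were above 0.1 in 0 of 6 pairs of groups. Among all 21 pairs of groups they were in 2, untreated pcDNA with untreated pCTSH#1 (0.106 to 0.239) and with untreated INS-1 (0.13 to 0.149). Between the lines the correlations were 0.083 to 0.206 at 6 h and 0.04 to 0.244 at 16 h. The limit of 0.1 thus does not decide whether equal numbers pair these arrays. Promoter windows came from RefSeq (GRCr8). Python 3.11.15 and matplotlib 3.10.9 made the figures.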

Additional observations from a re-analysis of the deposited data

Results flagged for a closer look

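Each result here is a difference between the lines in the same contrast, 16 h against 6 h with cytokines, where the difference itself passed limma's test. There were 83 such probe sets. The values are log2 differences, pCTSH#1 minus pcDNA, of the genes represented by these probe sets.

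Genes of the stress response and growth control were Chac1 (2.49), Ddit4 (0.76), Atf4 (0.75), Myc (0.71), Ddit3 (0.70), Cebpb (0.65) and Vldlr (-0.63). Chemokine and interferon genes were Oas1b (1.09), Ccl20 (1.00), Cxcl2 (0.99) and Cxcl3 (0.63). Other higher genes were Elmod1 (1.44), Dmrta1 (1.23), Depp1 (1.14), Phex (1.09), Id1 (0.98), Vps53 (0.97), Chl1 (0.88), Sct (0.84), Fst (0.80), Ak3 (0.67), Snx11 (0.62), Rbm47 (0.58), Vps37b (0.55) and Mapk6 (0.47).

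Other lower genes past 1 log2 unit were Ppargc1a (-1.90), Gna15 (-1.80), Cyria (-1.74), Lhfpl6 (-1.48), Spry2 (-1.32), Cnnm2 (-1.31), Slc40a1 (-1.28), Adora2b (-1.19), Arhgap22 (-1.17), Pnpla3 (-1.17), Gas7 (-1.12) and Ackr3 (-1.06). Smaller ones were Ano3 (-0.99), Nedd9 (-0.90), Rab9b (-0.88), Hpgd (-0.86), Eeig2 (-0.81), Hes6 (-0.79), Akr1c19 (-0.72), Tspyl4 (-0.72), Oga (-0.61), Grtp1 (-0.59), Wdr6 (-0.57), Sik2 (-0.56) and Adgrb2 (-0.55). The values of Oas1b, Dmrta1, Chl1, Fst, Ppargc1a, Gna15, Cyria, Cnnm2, Pnpla3, Gas7, Ackr3 and Ano3 rest on at least 1 group at or near background and are not sizes.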

How the results depend on the processing

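No named gene that was called reversed its direction under any alternative run. Against 83 calls (41 higher, 42 lower), the fit on only the 12 arrays called 46, of which 17 were lower, and kept 21 of the 49 named genes. The brighter 50% of probe sets gave 193 calls (94 higher, 99 lower), a trended and robust prior 212 (107 and 105) and array weights 210 (106 and 104). The replicate block gave 122 calls (64 lower), and Tspyl4, Phex, Nedd9, Mapk6 and Cebpb lost their calls in it. Whether equal numbers pair the 12 arrays compared is not decided by the limit of 0.1 on the same-numbered correlations. Between the untreated arrays of the lines all 3 correlations were above that limit. There the block gave 644 calls at 0 h (582 without). Of 110 named genes not called, 13 gained a call with the trended prior, 13 with array weights, 5 with the block and 3 with cyclic loess, and 11 of 88 over the brighter probe sets. Herpud1, Nfkb1 and Ifit2 were among those gaining with the trended prior, array weights and the brighter probe sets, and Ciita with the last 2. Centred arrays gave 77 calls, cyclic loess 88, weights per group 95 and gene means 108. With weights per group the lines differed at 6 h for 1564 probe sets (887 otherwise) and at 16 h for 692 (1181 otherwise). Leaving out 1 array gave 41 to 130 calls, 22 to 65 higher and 19 to 65 lower. The share of higher calls was 49.4%, 63% on only the 12 arrays and 59.1% with cyclic loess. The cause of these shifts was not tested. Signal near background limits the differences of dim genes.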
